A study of Mus musculus with 4 samples.

Results

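The genes of mouse chromosome 3 were examined in the order of their positions. The members were chosen by position and mean level: 712 genes of chromosome 3 whose normalized counts averaged 10 or more across the 4 libraries, leaving out the Gbp and S100 families, out of 14238 genes tested in the whole table. They come from 2875 chromosome 3 genes listed in the table, where 1386 were without a read. Segments along the chromosome were then defined by the measured difference between resistant and control libraries, so that difference describes the segments and does not test them. RNA was sequenced in bulk from 4TO7 cells, a mouse mammary carcinoma line, obtained by enzymatic digestion of tumors of the Balb/c strain. There were 2 libraries of cells from tumors resistant to immunotherapy with an antibody against PD-L1 and 2 libraries of cells from control tumors. The treatment label of all 4 samples reads untreated while their treatment protocol names the antibody, and what the controls received was not resolved. The series calls the libraries of a group individual biological replicates, and its labels name no mouse, age or pooling, so the p-values reflect library-to-library spread and nothing wider.

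Carcinoma lines often carry gained and lost stretches of chromosomes, and the transcripts of genes in such a stretch tend to move together by a modest amount. Neighbouring genes can also move together because they share regulation, as in clusters of related genes. Mouse chromosome 3 holds several such clusters, including the keratinocyte genes of the epidermal differentiation complex, a histone cluster and the glutathione transferase genes of the Gstm family. No DNA measurement was used here, and these possibilities cannot be told apart in RNA levels.

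Promoter sequences of 5 members are shown because the accounts of the segments and of the chromosome turn on them. They are the called gene with the smallest p in each of the 3 segments described below (Arhgef11, Adar and Itga10), and the genes with the largest called fall (Ifi44) and the largest called rise (Mgarp) where the higher group averaged at least 100 normalized counts, among members with an entry. Each run covers 250 bases before to 50 after the gene's start, on the gene's own strand, from RefSeq on GRCm38.p6. Arhgef11 is at chr3:87617309-87617608 (plus strand), Adar at chr3:89714772-89715071 (plus), Itga10 at chr3:96645334-96645633 (plus), Ifi44 at chr3:151749861-151750160 (minus) and Mgarp at chr3:51396498-51396797 (minus). Capitals mark matches, on either strand, to 6 short motifs listed in the account of promoters.
Arhgef11: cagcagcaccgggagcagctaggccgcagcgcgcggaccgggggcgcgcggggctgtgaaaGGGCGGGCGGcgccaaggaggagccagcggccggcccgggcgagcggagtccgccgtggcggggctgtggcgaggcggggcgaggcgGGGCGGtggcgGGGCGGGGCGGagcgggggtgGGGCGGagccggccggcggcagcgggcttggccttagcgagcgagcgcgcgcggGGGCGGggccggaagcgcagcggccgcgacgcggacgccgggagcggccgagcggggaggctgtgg
Adar: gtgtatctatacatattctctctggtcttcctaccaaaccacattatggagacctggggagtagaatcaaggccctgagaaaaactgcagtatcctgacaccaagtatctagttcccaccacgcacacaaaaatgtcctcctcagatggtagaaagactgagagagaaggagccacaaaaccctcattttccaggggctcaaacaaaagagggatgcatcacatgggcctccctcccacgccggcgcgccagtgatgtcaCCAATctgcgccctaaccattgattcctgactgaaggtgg
Itga10: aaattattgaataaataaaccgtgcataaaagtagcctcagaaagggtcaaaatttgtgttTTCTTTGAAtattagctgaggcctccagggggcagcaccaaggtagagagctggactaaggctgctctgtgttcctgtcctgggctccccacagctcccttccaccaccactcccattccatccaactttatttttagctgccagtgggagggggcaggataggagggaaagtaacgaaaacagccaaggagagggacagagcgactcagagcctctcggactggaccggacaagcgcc
Ifi44: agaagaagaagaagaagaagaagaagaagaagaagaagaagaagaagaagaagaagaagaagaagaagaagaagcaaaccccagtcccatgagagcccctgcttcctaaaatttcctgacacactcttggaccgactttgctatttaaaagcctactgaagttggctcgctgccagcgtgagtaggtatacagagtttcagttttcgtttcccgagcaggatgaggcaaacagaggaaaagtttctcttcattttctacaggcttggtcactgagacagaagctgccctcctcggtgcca
Mgarp: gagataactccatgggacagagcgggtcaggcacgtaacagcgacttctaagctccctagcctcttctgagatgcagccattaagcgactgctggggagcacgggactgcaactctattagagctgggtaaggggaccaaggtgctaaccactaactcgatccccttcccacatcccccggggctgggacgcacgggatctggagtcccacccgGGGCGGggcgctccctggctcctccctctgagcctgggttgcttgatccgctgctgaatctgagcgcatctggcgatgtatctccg
The Arhgef11 window held 7 matches, all to the GC box, and its base composition was 83.7% G and C. The Adar, Itga10 and Mgarp windows held 1 match each, and the Ifi44 window held 0. Matches were exact in letters and spacing, so variants of a motif with other spacing were not counted.

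The libraries held between 45666470 and 49592054 counted reads. Krt18, a keratin of simple epithelia, was the most counted of 7 epithelial markers, whose sum lay at 47529.7 and 55237.5 normalized counts in resistant and 66530.8 and 43052.5 in control libraries. Krt5 and Krt14 were at 0 reads, Epcam fell and Krt19 rose. The 7 leukocyte markers summed to 10684 and 10141.4 against 3348 and 6416, with 2 of 7 passing the filter, Cd68 as the most counted and the one that rose, and Cd2 and Tyrobp at 0. The 5 fibroblast markers summed to 7137 and 8491 against 9281 and 6329 (Dcn fell), the 4 endothelial ones to 166 and 224 against 69.2 and 38.3 (Vwf rose), and the 4 pericyte and muscle ones to 847 and 1084 against 488 and 387 (Pdgfrb and Des rose). No adipocyte marker passed the filter, and their sum was at most 4.29. The part of these markers in the results below was not tested, and in bulk RNA fewer cells of a type and less RNA per cell cannot be told apart.

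Most of chromosome 3 lay somewhat lower in resistant cells. The median log2 difference, resistant minus control, was -0.16 over the 712 members, with quartiles of -0.39 and 0.050, whereas it was 0.0023 over all tested genes and 0.012 over the 13510 tested genes off chromosome 3. A negative difference was found for 498 members (69.9%), against 49.7% of all tested genes. This share was larger on chromosomes 19 (76.1%) and 16 (74.5%), and smallest on chromosome 9 (25.3%). Among 20 chromosomes the median of chromosome 3 ranked second from the bottom, above that of chromosome 19 alone (-0.23). Relative to the mean of the 4 libraries, the median member stood at -0.057 and -0.097 in the resistant libraries and at 0.061 and 0.095 in the controls. The groups did not overlap in this median, but 2 libraries a group allow no exact permutation p under 0.333.

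**Figure D1:**
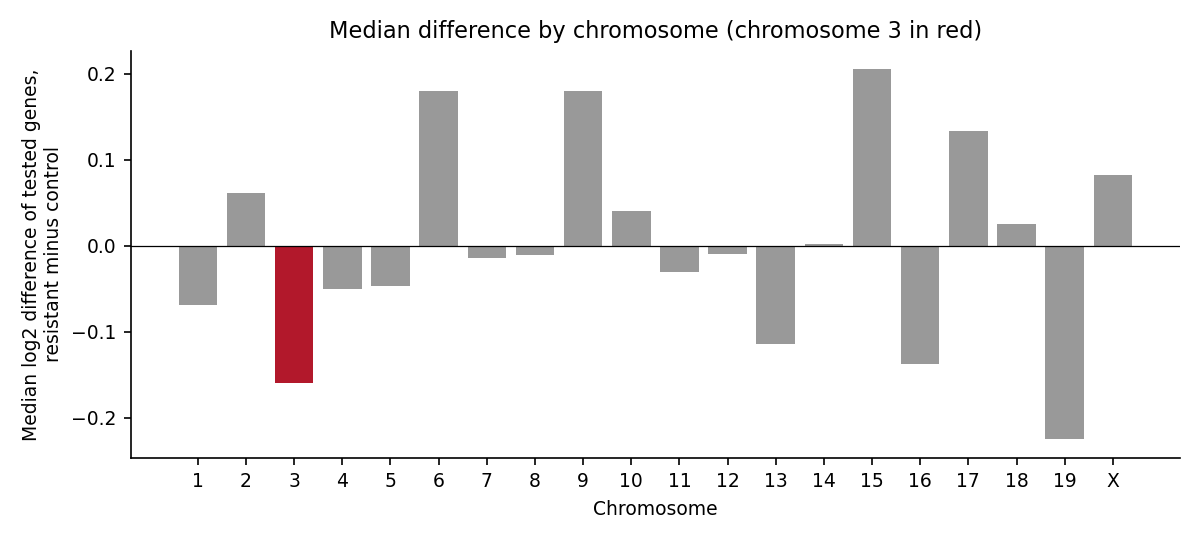
Median log2 difference, resistant minus control, of the tested genes of each chromosome, with Gbp and S100 genes left out. Bars start at 0; chromosome 3 (red, -0.16) is the second lowest and chromosome 19 (-0.23) the lowest.

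In limma, fitted over all tested genes with Benjamini-Hochberg adjustment at 0.05, 62 of the 712 members fell (8.71%) and 15 rose (2.11%). Over all tested genes 4.73% fell and 5.32% rose. Since the segments described below were placed with the same contrast, these shares are not read as support for them. The number of members called moved with the library left out, as did the number over all tested genes. Without resistant replicates 1 and 2 in turn, the median log2 difference of all members was -0.18 and -0.12. Without control replicates 1 and 2 it was -0.17 and -0.13. For 321 members the resistant libraries were each below both controls (45.1%, against 28.3% of all tested genes), and for 106 each above both (14.9%, against 28.4%). The members that fell did so by between -0.40 and -3.04 on the log2 scale, with a median of -0.86. Those that rose did so by between 0.44 and 3.37, with a median of 1.11. The typical member thus differed by less than any member that passed the test.

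To locate shifted stretches, a running median over 31 members in position order was taken, and a segment was any run of at least 15 members whose running median lay 0.25 or more from the median of all tested genes. This gave 3 segments, all lower in resistant cells, with 107 of the 712 members. The number depended on the settings: thresholds of 0.2 and 0.35 gave 170 and 45 members, a minimum mean of 100 gave 69, and an optimal partition into constant steps left the chromosome whole, with 0 members in a segment. The same rule applied to chromosomes 1 to 19 and X placed 2.74% of 14191 genes in segments shifted down. Chromosome 3 ranked second among them in this share, after chromosome 19. No stretch of chromosome 3 was shifted up, and the highest running median was 0.14, at the start of the chromosome. Other chromosomes held stretches shifted the other way, such as 36.2% of the genes of chromosome 15 and 27.9% of those of chromosome 17. Running medians between groups are given relative to the median of all tested genes.

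**Figure D2:**
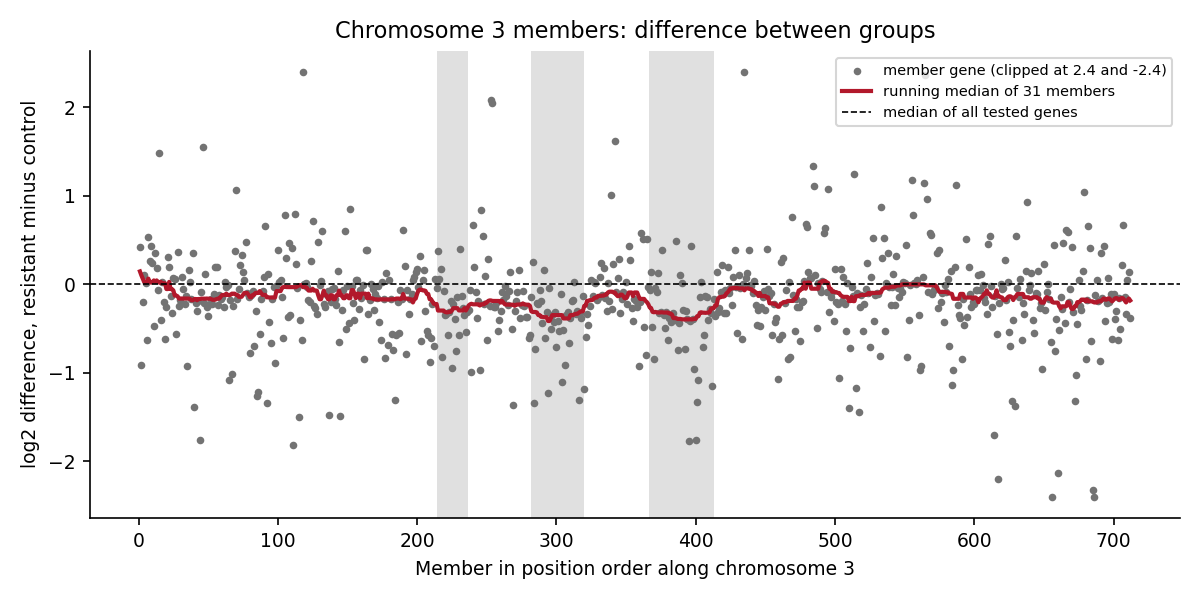
Log2 difference of each of the 712 members, resistant minus control (points, clipped at the ends of the axis), in position order, with the running median of 31 members (red) and the median of all tested genes (dashed). Grey bands are the 3 segments, where the running median reaches -0.42.

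The proximal segment ran from Trim2 to Rrnad1 (chromosome 3, 84160439 to 87930717, GRCm38), a span of 3.77 Mb with 22 members. The middle segment ran from Mtx1 to Jtb (89209081 to 90235838), a span of 1.03 Mb with 38 members. The distal segment ran from Prune1 to Ankrd35 (95253674 to 96691032), a span of 1.44 Mb with 47 members. Their median log2 differences were -0.31, -0.34 and -0.34, which as ratios of resistant to control are 0.804, 0.789 and 0.788. The difference was negative for 18 of 22, 35 of 38 and 39 of 47 members. Of all tested genes 49.7% were negative, and of the members outside the segments 67.1%. The rule places segments where the running median is low, so their medians and mostly negative members follow from it.

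Between and beside the segments the members were also mostly lower, by less. The 214 members before the proximal segment had a median of -0.13, the 45 between the proximal and middle segments -0.23, the 47 between the middle and distal segments -0.13, and the 299 after the distal segment -0.11. Over all 605 members outside, the median was -0.12, and 406 (67.1%) were negative. By 10 Mb bins, the lowest medians were -0.27 at 80 to 90 Mb (103 members) and -0.20 both at 90 to 100 Mb (119 members) and at 140 to 150 Mb (40 members). The first 10 Mb, with 12 members, was the only bin with a positive median (0.17). A further 3 runs past the threshold were too short to count: Ptpn22 to Gm15602 (2 members), Odf2l to Ddah1 (6) and 2410004B18Rik to Gm10636 (5).

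The borders were shallow. The running median went from -0.23 at Mnd1, the last member before the proximal segment, to -0.30 at Trim2, and from -0.27 at Rrnad1 to -0.24 at Isg20l2. Around the middle segment it was -0.25 at Gm43737 and -0.31 at Mtx1, then -0.31 at Jtb and -0.25 at Creb3l4. Around the distal segment it was -0.23 at Cdc42se1 and -0.26 at Prune1, then -0.27 at Ankrd35 and -0.24 at Pias3. Single genes at the borders did not mark a step: the first member of the proximal segment, Trim2, was higher in resistant cells (0.38, adjusted p = 0.113), and Creb3l4, a transcription factor gene just outside the middle segment, fell (-1.19 ± 0.24, adjusted p = 0.024).

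The libraries could be compared over each segment one by one. In the proximal segment the median deviation from the 4-library mean was -0.21 and -0.11 in resistant replicates 1 and 2 and 0.14 and 0.16 in control replicates 1 and 2. In the middle segment it was -0.19 and -0.18 against 0.27 and 0.11. In the distal segment it was -0.16 and -0.18 against 0.18 and 0.13. The resistant libraries lay below both controls in each segment, and control replicate 1 stood highest in the middle segment. The same libraries placed the segments, so lower values in the resistant group follow from the rule and are no check of it. Over the 605 members outside, the values were -0.038 and -0.088 against 0.036 and 0.085.

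**Figure D3:**
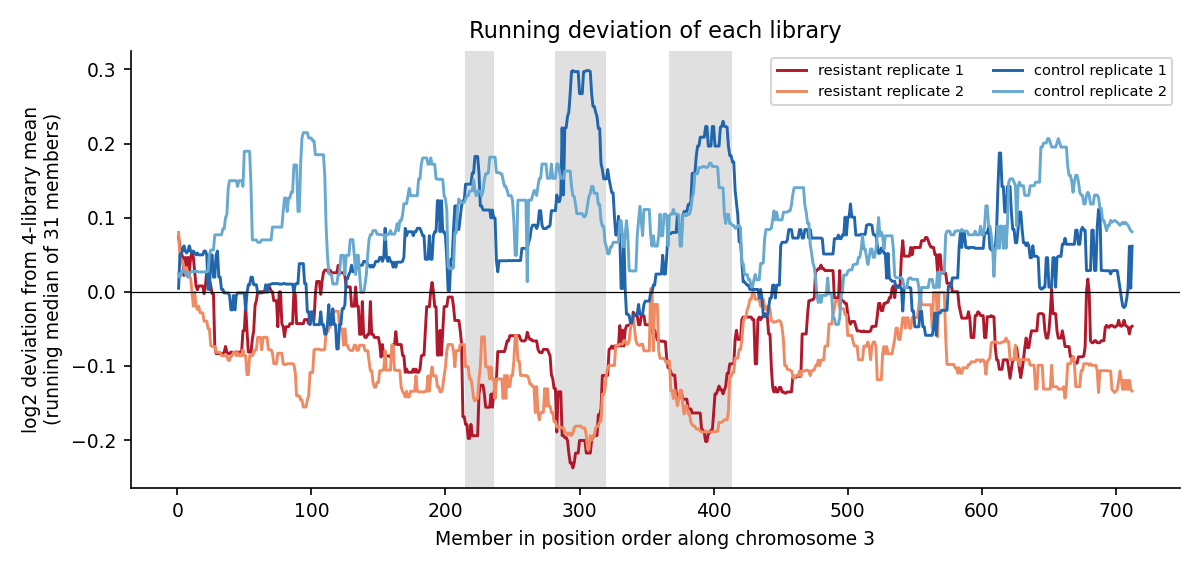
Running median over 31 members of each library's log2 deviation from the mean of the 4 libraries, in position order; grey bands are the segments. The resistant lines (red, orange) and control lines (blues) are farthest apart in the middle and distal segments and run close together over much of the rest.

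Differences within the pairs are a measure that did not place the segments. Resistant replicate 1 minus 2 had a median of -0.10 in the proximal, -0.053 in the middle and -0.0091 in the distal segment. Its running median stayed between -0.14 and 0.10 along the chromosome. Control replicate 1 minus 2 had a median of -0.0052 in the proximal, 0.13 in the middle and 0.089 in the distal segment, against 0.0021 outside, and a running median between -0.18 and 0.19. Neither pair's running median passed 0.25 at any member. Outside the segments the control pair's running median took both signs and reached both -0.18 and 0.19.

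**Figure D4:**
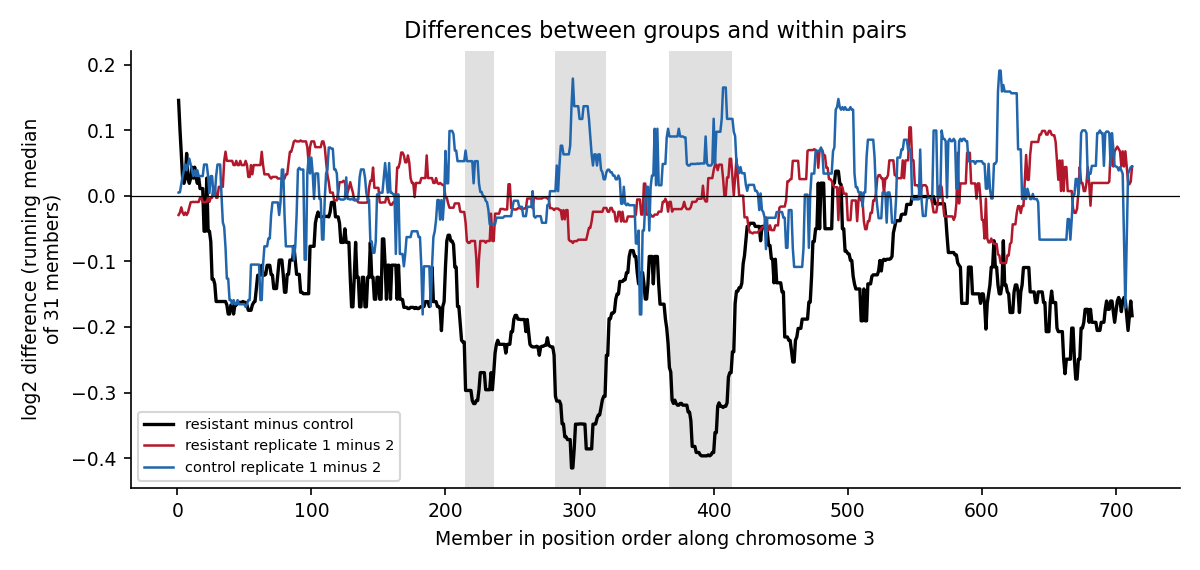
Running medians over 31 members of the difference between groups (black) and of the differences within the resistant pair (red) and the control pair (blue), log2 scale, in position order; grey bands are the segments. The black line falls below -0.25 in each band, and the blue line lies above 0 through the middle and distal bands.

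In the middle segment, near 89 to 90 Mb, 8 of 38 members (21.1%) fell in limma and 0 rose (0 were higher at an unadjusted p under 0.05). Falls made up 8.71% of all members and 4.73% of all tested genes, and the same contrast placed the segment. Adar, which encodes an RNA-editing deaminase with an interferon-inducible form (ENSMUSG00000027951.16, chromosome 3, 89715022 to 89753446), had 5066 and 5496 normalized counts in the resistant libraries and 11309.6 and 11399 in the controls. The groups lay far apart relative to their spread, with a log2 difference of -1.11 ± 0.10 (SE, adjusted p = 0.00107). Muc1, a membrane mucin of epithelial cells (ENSMUSG00000042784.9, chromosome 3, 89229057 to 89233381), had 58.1 and 56.8 normalized counts in the resistant libraries and 168 and 129 in the controls, and fell (-1.34 ± 0.25, adjusted p = 0.018). Shc1, an adaptor that links receptor tyrosine kinases to Ras (ENSMUSG00000042626.13, chromosome 3, 89418443 to 89430027), had 6817 and 7439.5 normalized counts in the resistant libraries and 13296 and 10194 in the controls, and fell (-0.71 ± 0.14, adjusted p = 0.024). In all 3 genes the groups did not overlap.

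Nup210l, which encodes a relative of a nuclear pore protein, had 96.8 and 122 against 315 and 234 normalized counts (resistant against control) and fell (-1.31 ± 0.24, adjusted p = 0.0163). The other called genes of the middle segment were Trim46, Zbtb7b, Pbxip1 and 4632404H12Rik, named after their values were seen. Of the 4 members with the highest mean counts, Shc1 alone passed. Ubap2l had 14199.8 and 14688 against 16845 and 15818 (-0.18 ± 0.10, adjusted p = 0.329), the flippase gene Atp8b2 12188 and 14379 against 19777 and 15134 (-0.39 ± 0.15, adjusted p = 0.163) and the metalloproteinase gene Adam15 9655 and 10803 against 14608 and 11019.5 (-0.31 ± 0.15, adjusted p = 0.235). In these 3 the groups did not overlap, and the difference of Ubap2l was the smallest. The matrix gene Thbs3 (0.25) and the ephrin gene Efna3 (0.16) stood farthest above the segment's median among members averaging at least 100 in the higher group, and the libraries of the groups overlapped in both. Exons of Thbs3 and Mtx1 overlap on opposite strands, as do those of Adar and Chrnb2, and unless strand was used in counting, reads of such a pair are not separable.

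In the distal segment, near 95 to 97 Mb, 5 of 47 members (10.6%) fell in limma and 0 rose (1 was higher at an unadjusted p under 0.05). That share of falls was near the 8.71% of all members, against 4.73% of all tested genes. Itga10, an integrin subunit that binds collagen (ENSMUSG00000090210.7, chromosome 3, 96645584 to 96664519), had 755 and 929.9 normalized counts in the resistant libraries and 2269 and 1532 in the controls. It fell by more than 2-fold (-1.15 ± 0.20, adjusted p = 0.0145), and control replicate 2 lay closest to the resistant libraries. The histone gene Hist2h2be (ENSMUSG00000068854.7, chromosome 3, 96221119 to 96223738) had 165 and 125 normalized counts in the resistant libraries and 301 and 260.2 in the controls, and fell (-0.95 ± 0.22, adjusted p = 0.0351). The antisense gene Gm17690, whose exons overlap those of Mtmr11 and Sf3b4 on the other strand, had 37.7 and 54.7 against 160.4 and 155 and fell (-1.77 ± 0.27, adjusted p = 0.00881). The other calls were the predicted genes Gm20632 and Gm20633, named after their values were seen, whose exons overlap histone genes on the other strand.

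Well-known genes of the distal segment did not pass the test. Mcl1, an inhibitor of apoptosis, had 8901 and 8927 against 11476 and 10666 normalized counts (-0.31 ± 0.10, adjusted p = 0.103), and Arnt, the shared partner of hypoxia-inducible factors, had 5450.0 and 5299.7 against 6559 and 6957 (-0.33 ± 0.10, adjusted p = 0.0864). Both lay near the segment's median with groups that did not overlap. The matrix gene Ecm1 had 12991 and 14991 against 21854 and 15138 (-0.38 ± 0.18, adjusted p = 0.223), with control replicate 1 well above the rest. Other members with many counts had differences near 0, and overlapping groups: the thioredoxin inhibitor Txnip (0.027), the ceramide synthase gene Cers2 (-0.043) and Plekho1 (0.017). The synaptic vesicle gene Sv2a (529 and 559.9 against 435 and 374; 0.43 ± 0.16, adjusted p = 0.137) and the pseudogene Rps10-ps1 (0.39), which shares sequence with its parent gene, stood farthest above the median among members averaging at least 100 in the higher group, and did not pass.

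In the proximal segment, near 84 to 88 Mb, 2 of 22 members (9.09%) fell in limma and 0 rose (1 was higher at an unadjusted p under 0.05). That share of falls was near the 8.71% of all members, against 4.73% of all tested genes. Arhgef11, an exchange factor for the GTPase RhoA (ENSMUSG00000041977.18, chromosome 3, 87617559 to 87738034), had 2742 and 3315 normalized counts in the resistant libraries and 4708 and 4246 in the controls, and fell (-0.57 ± 0.13, adjusted p = 0.0347). The mitochondrial ribosomal protein gene Mrpl24 (ENSMUSG00000019710.13, chromosome 3, 87919506 to 87923672) had 2663 and 2399 normalized counts in the resistant libraries and 3404 and 3959.6 in the controls, and fell (-0.54 ± 0.12, adjusted p = 0.0352). Both groups of libraries were apart in each gene, and exons of each overlap a gene on the other strand. The growth factor gene Hdgf (28728 and 25009.7 against 30350.3 and 38348; -0.35 ± 0.15, adjusted p = 0.186), the adhesion gene Kirrel (16140.1 and 17939 against 22183 and 22333; -0.39 ± 0.11, adjusted p = 0.0703) and Prcc (4767 and 4709 against 5616 and 5809; -0.27 ± 0.10, adjusted p = 0.136) had groups that did not overlap, and did not pass. By the same limit on counts, Tmem154 and Glt28d2 were farthest below the segment's median (-0.82 and -0.57), and Trim2 and Arfip1 were farthest above it (0.38 and 0.17). This segment was the least stable: with windows of 21 or 51 members, a threshold of 0.35, a minimum mean of 100 or without control replicate 2, none of its members lay in a segment, and without resistant replicate 1 only 7 of 22 did.

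Leaving out either of the resistant libraries ended the calls of Arhgef11, Mrpl24, Muc1, Shc1, Nup210l, Creb3l4 and Hist2h2be, and leaving out resistant replicate 1 ended those of Itga10 and Gm17690. A minimum mean of 1 ended the calls of Arhgef11, Mrpl24 and Hist2h2be, and the replicate block that of Mrpl24. No log2 difference among the called named genes changed by more than 1.32 times without a resistant library, and the spread then came from the control pair alone. Without control replicates 1 and 2 the largest changes were 1.49 and 1.33 times, both for Ovgp1, a gene outside the segments. The call of Adar held in every alternative run.

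Properties that the segment rule did not use were compared as descriptions. The middle and distal segments were dense in members, with 37.0 and 32.7 per Mb, against 4.59 over the whole chromosome, and the stretch between the proximal and middle segments was as dense (35.1 per Mb). The proximal segment had 5.84 per Mb. Protein-coding genes made up 82.2% of the segments' members and 81.5% of those outside, and the median of the mean normalized count was 1372 inside and 1456 outside. The difference that placed the segments is given by level as a description. The 62 segment members with a mean of at least 1000 had a median log2 difference of -0.31, and the 45 below it had -0.49. Outside, the medians were -0.13 (338 members) and -0.12 (267 members).

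Promoter sequences matched 495 members by symbol, 82 of them in the segments. Their G and C content had a median of 59.3% in the segments and 59.7% outside, and 52.7% over all 27025 promoters. The set of all promoters includes genes with too few counts to pass the filter, so it is no matched background for the members. The motifs searched, on both strands, were the GC box GGGCGG, the CCAAT box CCAAT, the TATA box TATAAA, the E-box CACGTG, the interferon-gamma activated site TTCNNNGAA and an interferon-stimulated response element taken as GAAA, any 2 bases, then GAAA. A GC box stood in 62.2% of segment promoters, 60.3% of those outside and 35.9% of all. For the E-box these shares were 14.6% (12 of 82), 7.75% and 7.24%. The other 4 had shares of 36.6%, 40.0% and 37.9% (CCAAT), 6.10%, 10.7% and 14.2% (TATA), 3.66%, 6.78% and 8.47% (TTCNNNGAA) and 2.44%, 3.15% and 3.49% (response element). Each share counts promoters with at least 1 match, no motif's matches were merged with another's, and the shares describe letters only.

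Of the 6 largest falls and 6 largest rises chosen by the rule for named genes, Gm17690 alone lay in a segment. Ifi44, an interferon-stimulated gene (ENSMUSG00000028037.13, chromosome 3, 151730922 to 151749960), had 1768 and 2119 normalized counts in the resistant libraries and 11269 and 8368 in the controls, and fell (-2.33 ± 0.16, adjusted p = 0.000478). Its close paralog Ifi44l, with which reads can be shared, had 11.2 and 7.51 against 102 and 67.6 and fell (-3.04 ± 0.38, adjusted p = 0.00381). Tnfsf10, the death ligand TRAIL (ENSMUSG00000039304.11, chromosome 3, 27317028 to 27342427), had 113 and 127 normalized counts in the resistant libraries and 477 and 350.0 in the controls, and fell (-1.76 ± 0.22, adjusted p = 0.00357). In these 3 interferon-responsive genes control replicate 1 was highest. Pcdh18, a protocadherin (202 and 197 against 715 and 698; -1.82 ± 0.16, adjusted p = 0.000826), and Amigo1, a neuronal adhesion protein (259.9 and 274 against 698 and 715; -1.40 ± 0.15, adjusted p = 0.00207), fell with pairs that agreed closely. The matrix protein gene Postn fell at low counts (31.6 and 40.8 against 88.4 and 117; -1.48 ± 0.29, adjusted p = 0.0226), a call that ended without either resistant library.

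In the other direction, Mgarp, which encodes a mitochondrial membrane protein (ENSMUSG00000037161.14, chromosome 3, 51388412 to 51396738), had 157 and 164 normalized counts in the resistant libraries and 16.3 and 13.1 in the controls, and rose (3.37 ± 0.29, adjusted p = 0.000806). Vtcn1, the inhibitory immune ligand B7-H4 (ENSMUSG00000051076.8, chromosome 3, 100825459 to 100896922), had 195 and 208 normalized counts in the resistant libraries and 41.3 and 19.2 in the controls, and rose (2.79 ± 0.37, adjusted p = 0.00488). In both genes the controls held few counts, and they differed more from each other in Vtcn1. The antisense gene A530020G20Rik (142 and 172 against 37.5 and 23.2; 2.36 ± 0.31, adjusted p = 0.0049) and Slc44a3, a choline transporter family gene (542 and 618 against 295 and 231; 1.15 ± 0.19, adjusted p = 0.011), rose, and their exons overlap, on opposite strands, so their reads may not be separable. The sorting receptor gene Sort1 (275 and 304 against 106 and 139; 1.25 ± 0.22, adjusted p = 0.0142) and the oviduct glycoprotein gene Ovgp1 (452 and 400.1 against 152 and 253; 1.11 ± 0.26, adjusted p = 0.0362) also rose. The calls of Slc44a3, Sort1 and Ovgp1 ended without either resistant library, and that of Ovgp1 also with a minimum mean of 1.

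**Figure D5:**
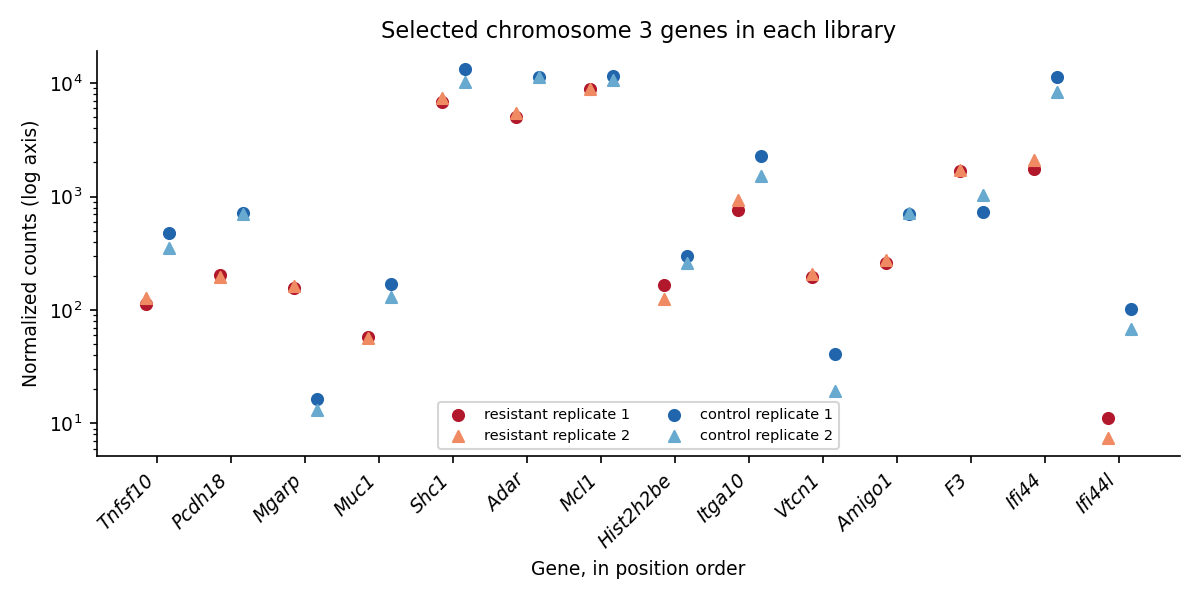
Normalized counts of 14 chromosome 3 genes in each library on a log axis, in position order; circles are replicate 1 and triangles replicate 2, red and orange resistant, blue control. Mgarp, Vtcn1 and F3 are higher in both resistant libraries and the other 11 lower.

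Members were also read by function, from 6 lists, beside a background of 4.73% falling and 5.32% rising and a median of 0.0023 over all tested genes. The median of 13 interferon and NF-kappaB response genes was -0.60; 7 fell and 0 rose (1 was higher at an unadjusted p under 0.05). Those that fell were Ifi44, Ifi44l, Tnfsf10, Adar and, named after their values were seen, Tifa, Nfkb1 and Ctso. Only Adar of these lay in a segment. The cytokine gene Csf1 had 8082 and 8384 against 9001 and 13482 normalized counts (-0.42 ± 0.18, adjusted p = 0.189), and the adhesion molecule gene Vcam1 had 17508 and 20039 against 22955 and 15902 (-0.029 ± 0.18, adjusted p = 0.939). Neither passed, and control replicates differed by more than the groups in Vcam1. The 5 tested Gbp genes near 142 Mb, left out of the members, all fell (median -1.74), and the 11 tested S100 genes had a median of -0.12.

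Of 26 growth factor, receptor and oncogene members, 2 fell (Muc1 and Shc1) and 3 rose, with a median of -0.26. The 8 in segments had a median of -0.36 and the 18 outside -0.23. Since the segments were placed with this contrast, a lower median inside them is not read as a result. F3, the coagulation initiator tissue factor (ENSMUSG00000028128.13, chromosome 3, 121723537 to 121735048), had 1681 and 1718 normalized counts in the resistant libraries and 738 and 1023 in the controls, and rose (0.97 ± 0.17, adjusted p = 0.0143). The other rise beside F3 and Vtcn1 was Tpd52, named after its values were seen. The matricellular gene Ccn1 had 35809 and 29463 against 15778 and 34954 (0.47 ± 0.32, adjusted p = 0.405), with control replicate 1 far below the other 3 libraries. The F3 call ended without either resistant library.

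The median of 24 cell cycle and chromatin members was -0.17; 2 fell (Hist2h2be and Tet2) and 0 rose (1 was higher at an unadjusted p under 0.05). Tet2, an enzyme that oxidises methylated cytosine in DNA, averaged 722 ± 36.5 normalized counts in resistant and 1071 ± 101 in control libraries (SD, n = 2), and fell (-0.57 ± 0.14, adjusted p = 0.0434 in limma across all genes). That call ended without either resistant library, with a minimum mean of 1 and under the replicate block. The condensin gene Smc4 (13974 and 12419.6 against 12955 and 16928; -0.17 ± 0.15, adjusted p = 0.517) and the histone chaperone gene Anp32e (11744 and 11428 against 11188 and 10312; 0.11 ± 0.10, adjusted p = 0.552) did not pass. The histone variant gene H2afz, whose sequence has processed copies elsewhere, had 407 and 367 against 249.8 and 277 (0.55 ± 0.17, adjusted p = 0.0904). Anp32e lay inside the distal segment with a difference above 0.

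Of 39 metabolic and transporter members, 4 fell and 3 rose, with a median of -0.057, the highest of the 5 lists with more than 1 member. Just 1 gene of this list lay in a segment. The carbonic anhydrase gene Car13 (3962 and 3647 against 5541 and 5698; -0.56 ± 0.10, adjusted p = 0.0176) and the zinc transporter gene Slc39a1 (2289 and 2328 against 3719 and 3267; -0.59 ± 0.11, adjusted p = 0.0203) fell. Gstm7, which also fell, and Slc7a11, which rose beside Mgarp and Sort1, are named after their values were seen. The seryl-tRNA synthetase gene Sars (31111 and 31262 against 33451 and 33327; -0.10 ± 0.11, adjusted p = 0.617) did not pass. The calls of Car13 and Slc39a1 ended without either resistant library.

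The median of 18 members for translation, the proteasome and mitochondrial ribosomes was -0.17; 1 fell (Mrpl24) and 0 rose (0 were higher at an unadjusted p under 0.05). The 6 in segments had a median of -0.37 and the 12 outside -0.098. The same contrast placed the segments, so a lower median inside them is not read as a result. In the distal segment the mitochondrial threonyl-tRNA synthetase gene Tars2 (1913 and 1853 against 2611 and 2452; -0.43 ± 0.11, adjusted p = 0.0514) and Mrps21 (781 and 792 against 1101 and 975; -0.40 ± 0.13, adjusted p = 0.109) lay lower in both resistant libraries without passing. Mrps28, a mitochondrial ribosomal protein gene of the first 10 Mb, lay higher in both (953 and 932 against 807 and 768; 0.26 ± 0.13, adjusted p = 0.249). The translocon-associated genes Ssr3 (0.023) and Ssr2 (-0.23) did not pass.

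The epidermal differentiation complex lies between the middle and distal segments. Apart from the S100 genes, which were left out of the members and of the list used here, it was close to silent. The 11 S100 genes that passed the filter lie in the same stretch (90511034 to 93564643). Of 50 symbols listed for it, the only one to pass the filter was Lingo4, a neighbour of the complex (45.9 and 51.5 against 83.6 and 43.4 normalized counts; -0.30 ± 0.36, adjusted p = 0.644). The other 49 had means of at most 5.11, and 40 of them were at 0 in all 4 libraries. The 47 members between the middle and distal segments, counted without S100 genes, spanned 5.00 Mb, at 9.40 per Mb.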

How the data were processed

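Bulk RNA-seq libraries of 4TO7 cells, 2 from resistant and 2 from control tumors, were grouped by their source labels and matched to columns by title. The authors deposited log2 values, and the submitters' processing notes name STAR, DESeq2 and mm10 without versions. The values showed the scale: log2(reads divided by a size factor, plus 1), since 100% fell on whole reads in each library (tolerance 0.01 reads). Depth was 45666470 to 49592054 reads, and no counting interval is used. No source used here says if counting used strand.

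Of 55385 genes, 55144 matched GENCODE M21 (GRCm38) by identifier without version, 54487 with it. The 14238 genes averaging 10 or more normalized counts entered a limma 3.58.1 fit (R 4.3.3, trend, no block) on the deposited values, where the pseudocount of 1 understates changes of low genes, with Benjamini-Hochberg adjustment at 0.05. Values are resistant minus control ± SE. Members were ordered by midpoint, and running medians of 31 members (at least 16 at the ends) were computed in pandas 2.3.3. Members and lists were chosen with earlier results of these data known. Named genes were the segments' border genes, their 4 most counted members and the 2 farthest above and below the median (higher group averaging 100 or more); the 6 largest called rises and falls of the chromosome (higher group averaging 100 or more, no overlap of groups); and from each list up to 4 with the smallest p and 2 most counted; some of these are not reported here. The fit and the segment rule were tested on simulated data. Alternatives were filters, pseudocount, scaling (trimmed mean of M-values, total reads), windows, thresholds, an optimal partition, voom on recovered reads, a replicate block and leaving out each library.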

Additional observations from a re-analysis of the deposited data

How the results depend on the processing

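The middle and distal segments were found again, in part or whole, under every running-median setting, while the proximal one was lost in 5. Members in shifted segments numbered 69 with a minimum mean of 100, 170 with a threshold of 0.2, and 45 with 0.35, against 107. An optimal partition into constant steps placed 0 members in a shifted segment, since it divided the chromosome at no point. With Gbp and S100 genes kept there were 131 members in 4 segments, the last ending at Ddah1. With runs of any length, chosen after seeing the data, there were 120. The distal median was -0.39 with a minimum mean of 1 and -0.38 with total-read scaling, which put the median outside at -0.16 and that of all members at -0.20. Relative to all tested genes the total-read medians were -0.35, -0.13 and -0.16, as with the deposited scaling. With a library left out the median ranged from -0.26 to -0.31 (proximal), -0.27 to -0.44 (middle), -0.31 to -0.35 (distal) and -0.12 to -0.18 (all members). The control pair differed by 0.049 in the distal segment with a minimum mean of 100, against 0.089.

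In the main run 62 members fell and 15 rose, and 674 and 758 of all tested genes. With a minimum mean of 1, 38 of 1073 members fell (3.54%) and 9 rose (0.839%). Over all genes then tested, 462 fell and 484 rose. With a minimum of 100, 9 members rose (1.69%), and 539 of all genes then tested. Without a library, falls ranged from 10 to 153 and rises from 3 to 50. The spread then comes from the pair left whole. A block for the replicate number gave 54 falls and 15 rises, against 62 and 15, and 585 and 628 over all tested genes. Replicates with the same number deviated from their group means in opposite directions (r = -0.36 across genes). With 2 libraries a group the deviations mirror each other, so resistant and control libraries with different numbers deviated together. What they shared was not tested. A crossed pairing, added after seeing the data, gave 205 falls and 53 rises. Voom on recovered reads gave 60 and 14, and 647 and 726 over all tested genes. Of 26 called named genes, 9 were called in every alternative that tested them: A530020G20Rik, Adar, Amigo1, Ifi44, Ifi44l, Mgarp, Pcdh18, Tnfsf10 and Vtcn1. Of these, A530020G20Rik, Ifi44l and Mgarp averaged under 100 and were not tested with a minimum mean of 100. No named gene with a call reversed.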
